A study of Mus musculus with 3 samples.

Results

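The genes described here encode the subunits of the proteasome, and their messages were measured by RNA sequencing in mouse liver. A gene was taken when its symbol was Psma, Psmb, Psmc or Psmd followed by digits alone, which gave 39 of the 49492 entries in the deposited files. The study followed CD-1 mice, an outbred stock, given zinc oxide (ZnO) nanoparticles by mouth. The control library came from liver of mice given phosphate-buffered saline (PBS), and the other 2 libraries came from liver after 25 mg/kg of ZnO nanoparticles per day for 8 or for 12 weeks. The labels give no duration for the PBS group, and its 1 library serves as control for both times. Each group is 1 library, and neither the sex and age of the animals nor the number of animals behind a library is in the labels. The spread between animals is therefore unknown, and no test was made.

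The proteasome is the main protein-degrading machine of the cytosol and nucleus, and it takes apart proteins that carry ubiquitin chains. Its core is a barrel of alpha and beta rings, in which 3 beta subunits cut the protein chain. A regulatory particle on the end of the barrel binds the ubiquitin chain, removes it, and unfolds and threads the substrate with a ring of ATPases. Under interferon, and constitutively in many immune cells, the 3 cutting subunits are replaced by the inducible subunits Psmb8, Psmb9 and Psmb10, and the resulting immunoproteasome favours peptides that fit MHC class I molecules. By role the 39 genes fell into 16 core genes, 20 regulatory genes and these 3 immunoproteasome genes.

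Levels are CPM, counts scaled to a common library size, and differences between libraries are log2 ratios taken after adding 1 CPM to both. A gene entered the comparisons at 1 CPM or more in at least 1 library, which 38 of the 39 members and 14585 entries in all did. The member left out was Psmb11, the core subunit of thymic epithelium, with 1 count at 12 weeks and 0 in the other libraries. Each interval (95%) belongs to the plain count ratio, with nothing added, and covers counting error only. Library totals lay between 13263211 and 14258770 counts, where 3 counts correspond to 0.209 to 0.227 CPM. All 10 hepatocyte markers were detected in each library, with a summed level of 48537 CPM in the control, 59983 after 8 weeks and 59346 after 12 weeks. Alb alone had 21847, 31793 and 31169 CPM of these sums. At both times 7 of the 10 were above the control and 3 below it, and of all 14585 genes 7054 and 7127 were above it. Skeletal muscle markers stood apart in the 8-week library, with 2700 counts there, 26 in the control and 18 after 12 weeks, so the 12-week values are the ones without that signal.

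The core and regulatory genes were lower in both ZnO libraries than in the control, while the immunoproteasome genes were higher. All 35 core and regulatory genes that entered were below the control at 8 weeks and at 12 weeks, where 51.6% and 51.0% of all genes tested were below it. The sizes were modest: 29 of 35 at 8 weeks and 32 of 35 at 12 weeks were lower by at least 1.2-fold, a size reached by 24.4% and 22.5% of all genes. None of the 35 was lower by 2-fold, against 2.10% and 1.34% of all genes. The medians of these 35 log2 ratios were -0.45 and -0.56, beside medians of -0.02 and -0.01 over all genes tested. The 2 comparisons use the same control library, so the direction at 12 weeks is not independent of that at 8 weeks. Fewer cells of a type and less RNA per cell cannot be told apart in whole liver.

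**Figure D1:**
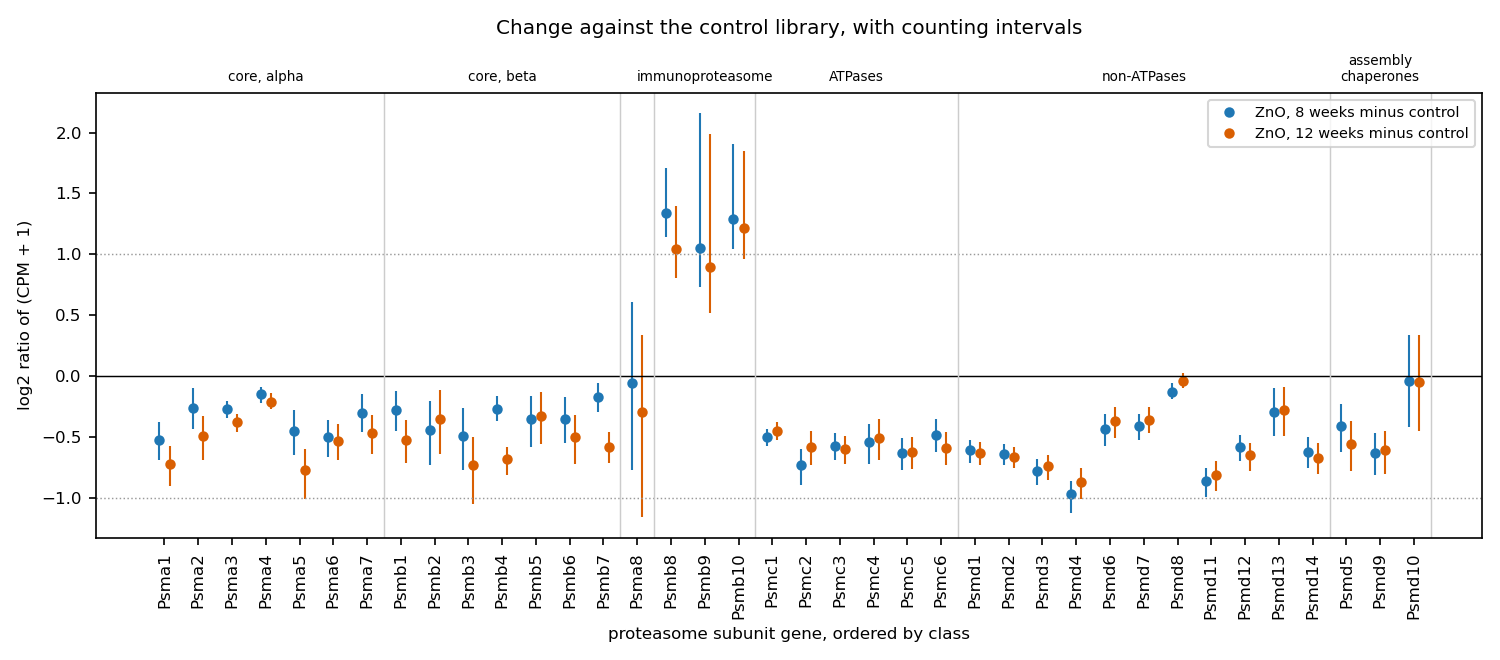
Log2 ratio of CPM + 1 against the control library (vertical axis) for each of the 38 genes tested, at 8 weeks (blue) and 12 weeks (orange). Vertical lines are 95% counting intervals and dotted lines mark 2-fold; the points of Psmb8, Psmb9 and Psmb10 lie between 0.90 and 1.34 and every other point lies below 0.

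The 7 alpha subunits form the outer rings of the barrel, whose tails close the entry gate. Psma4, the most abundant of them per length, had 293 CPM in the control, 263 after 8 weeks and 254 after 12 weeks. Psma3 had 252, 209 and 194 CPM in the same order. Psma5 had 40.8, 29.6 and 23.4 CPM. Psma5 thus showed the lowest 12-week ratio of the class (-0.77, interval -1.01 to -0.60) and Psma4 the smallest shift (-0.21, -0.27 to -0.14). Psma1 stood at 59.3, 40.9 and 35.6 CPM, with log2 ratios of -0.52 and -0.72. Psma2 (45.5, 37.8 and 32.0 CPM), Psma6 (66.0, 46.3 and 45.4 CPM) and Psma7 (55.2, 44.7 and 39.6 CPM) lay between these. In each of the 7 genes the control was highest and the 12-week library lowest. The class medians were -0.30 and -0.49, and all 7 intervals lay below 0 at both times. Of all 14585 genes tested, 3532 at 8 weeks and 3266 at 12 weeks had intervals below 0. Among the 8139 genes at 10 CPM or more on average these counts were 2619 and 2530. Psma8, the alpha subunit of male germ cells, had 38, 38 and 28 counts, and its intervals included 0.

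The 7 constitutive beta subunits line the inner rings. Of the cutting subunits, Psmb5 carries the chymotrypsin-like activity, Psmb6 the caspase-like and Psmb7 the trypsin-like activity. Psmb5 had 31.2 CPM in the control, 24.2 after 8 weeks and 24.6 after 12 weeks, and Psmb6 had 37.8, 29.5 and 26.4. Psmb7 had 99.6, 88.2 and 66.4 CPM, so its 8-week value lay closer to the control than to the 12-week value. These values come from separate libraries, so a change over time was not observed. The other beta subunits have no cutting site. Psmb4 had 116, 96.4 and 71.9 CPM, and Psmb2 had 20.3, 14.7 and 15.7. In counts, Psmb1 had 678, 587 and 456 and Psmb3 had 301, 222 and 172. The log2 ratios of the 7 ran from -0.49 (Psmb3) to -0.17 (Psmb7) at 8 weeks and from -0.73 (Psmb3) to -0.33 (Psmb5) at 12 weeks. Their medians were -0.35 and -0.52. All 7 intervals were below 0 at both times, as were those of 3532 and 3266 of all 14585 genes tested. Exons of Psmb7 share 405 bases with Nek6 on the opposite strand, and those of Psmb5 hold the microRNA gene Mir686, so reads there may be divided between entries.

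In the regulatory particle, the 6 ATPases Psmc1 to Psmc6 form the ring that unfolds the substrate, and they moved within a narrow range. Their log2 ratios lay between -0.73 and -0.48 at 8 weeks and between -0.62 and -0.45 at 12 weeks. Psmc1, the most abundant per length, had 306 CPM in the control, 216 after 8 weeks and 224 after 12 weeks. Psmc2 had 77.4, 46.2 and 51.3 CPM, the lowest ratio of the class at 8 weeks (interval -0.89 to -0.60). Psmc5 had 86.7, 55.8 and 56.0 CPM, the lowest at 12 weeks. For each of the 6 the control was highest and the ZnO libraries were close together.

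The 11 non-ATPase subunits of the mature particle spread more widely. Psmd4, a receptor for ubiquitin chains, had 103 CPM in the control, 52.1 after 8 weeks and 55.9 after 12 weeks, the lowest log2 ratios of any member (-0.97, interval -1.12 to -0.86, and -0.87, -1.01 to -0.75). Psmd11, a scaffold of the lid that also touches the core, had 117, 64.0 and 66.2 CPM, with ratios of -0.86 and -0.81. Psmd3, another lid subunit, had 153, 88.6 and 90.8 CPM (-0.78 and -0.74). In all of these the control stood well apart from a pair of similar ZnO values. Psmd14, the enzyme that cuts the ubiquitin chain off the substrate, had 97.9, 63.4 and 61.3 CPM (-0.62 and -0.67). The large scaffolds Psmd1 (166, 108 and 107 CPM) and Psmd2 (209, 133 and 131 CPM) had similar ratios, from -0.66 to -0.61. Psmd12, a further lid scaffold, had 120.0, 79.8 and 75.9 CPM.

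At the other end of this class stood Psmd8, a lid subunit and the most abundant non-ATPase per length. Its levels were 313, 287 and 305 CPM, with a 12-week ratio of -0.04 whose interval (-0.10 to 0.03) included 0. The lid subunits Psmd6 (83.5, 61.7 and 64.2 CPM), Psmd7 (117, 87.7 and 91.1 CPM) and Psmd13 (34.9, 28.4 and 28.6 CPM) had ratios between -0.43 and -0.28. The counting intervals of Psmd4 and Psmd8 did not overlap at either time. These genes were picked as the extremes of the class, so this describes its range only. Psmd13 shares 342 exon bases with Sirt3 on the opposite strand. Psmd5, Psmd9 and Psmd10 help to assemble the ATPase ring and are absent from the finished particle. Psmd9 had 52.9, 33.9 and 34.3 CPM and Psmd5 had 36.3, 27.1 and 24.4. Psmd10, also known as gankyrin, had 115, 118 and 108 counts, and its intervals included 0 in each comparison.

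**Figure D2:**
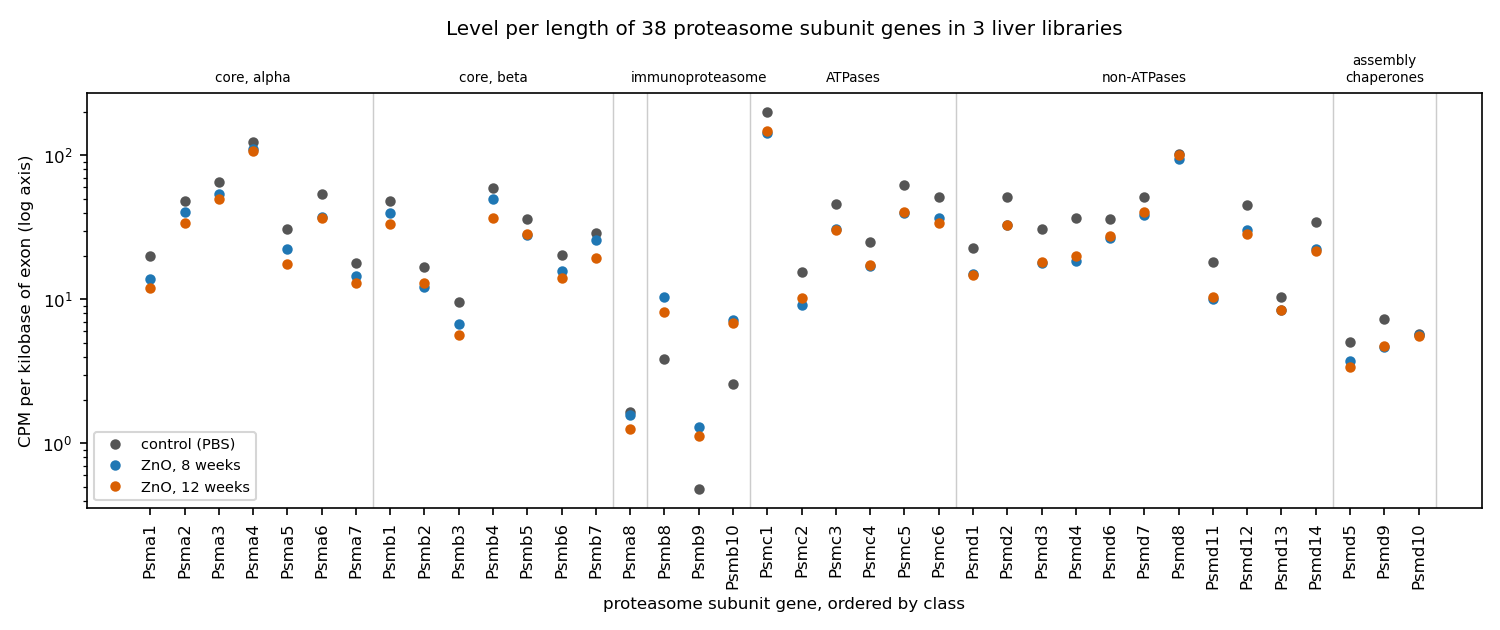
Level per length (CPM per kilobase of exon, log axis) of the 38 genes tested in the control (grey), 8-week (blue) and 12-week (orange) libraries. Among the core and regulatory genes the grey point is the highest of each trio, and for the 3 immunoproteasome genes it is the lowest.

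Per length of exon, subunits that sit in the complex in equal number differed severalfold in message level. In the control the alpha subunits ran from 18.0 CPM per kilobase (Psma7) to 124 (Psma4), the constitutive beta subunits from 9.64 (Psmb3) to 59.5 (Psmb4), and the ATPases from 15.4 (Psmc2) to 201 (Psmc1). The highest level was 6.89 times the lowest among the alpha subunits, 6.17 times among the beta subunits and 13.1 times among the ATPases. At 12 weeks these spans were 8.89, 6.52 and 14.5. The length is that of all exons in the files' annotation, including exons that liver may not use, so levels per length depend on the annotation. The assembly chaperones were the lowest regulatory genes in the control, between 5.03 and 7.30 CPM per kilobase.

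The 3 immunoproteasome genes went the other way. Psmb8, which replaces Psmb5, had 142 counts (10.5 CPM) in the control, 402 (28.1 CPM) after 8 weeks and 298 (22.5 CPM) after 12 weeks. Psmb10, which replaces Psmb7, had 60 counts (4.42 CPM), 175 (12.2 CPM) and 154 (11.6 CPM). Psmb9, which replaces Psmb6, had 24 counts (1.77 CPM), 68 (4.75 CPM) and 55 (4.15 CPM). In all 3 genes the control was lowest and the 8-week library highest. At 8 weeks the log2 ratios were 1.34 for Psmb8 (interval 1.14 to 1.71), 1.29 for Psmb10 (1.04 to 1.91) and 1.05 for Psmb9 (0.73 to 2.16). All 3 were at least 2-fold higher, a size reached by 4.15% of all genes tested. At 12 weeks the ratios were 1.04 (0.81 to 1.40), 1.22 (0.96 to 1.85) and 0.90 (0.52 to 1.99), and Psmb8 and Psmb10 passed 2-fold, as did 3.11% of all genes.

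Psmb9 and Psmb8 lie close together in the MHC region of chromosome 17 (mm10), Psmb9 at chr17:34181988-34187764 on the minus strand and Psmb8 at chr17:34197721-34201454 on the plus strand, each next to a transporter gene of peptide loading. Psmb10 lies elsewhere, at chr8:105935735-105938444 on the minus strand. Exons of Psmb8 share 186 bases with the predicted gene Gm20496 on the opposite strand, which had 77, 219 and 184 counts, and those of Psmb9 share 212 bases with Tap1. No other entry overlaps the exons of Psmb10, and its ratios were 1.29 and 1.22. The 3 promoters are shown because these were the members with higher values. Each runs from 250 bases before to 50 bases after the RefSeq start (GRCm38.p6), 5′ to 3′ on the gene's strand, with matches to 4 motifs in capitals: TGACNNNGC, the core of the antioxidant response element bound by NFE2L1 and NFE2L2; CCGGAAG, an ETS motif; the CCAAT box; and the core of the interferon-stimulated response element (TTTC, 2 bases of any kind, TTTC). Matches on either strand are marked.
Psmb8, chr17:34197945-34198244, plus strand: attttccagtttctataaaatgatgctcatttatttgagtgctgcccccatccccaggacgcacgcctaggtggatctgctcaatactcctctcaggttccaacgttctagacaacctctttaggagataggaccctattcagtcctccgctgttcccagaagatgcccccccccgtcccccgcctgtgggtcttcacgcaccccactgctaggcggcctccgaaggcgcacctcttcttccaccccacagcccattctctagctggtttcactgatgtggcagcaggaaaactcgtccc
Psmb9, chr17:34187281-34187580, minus strand: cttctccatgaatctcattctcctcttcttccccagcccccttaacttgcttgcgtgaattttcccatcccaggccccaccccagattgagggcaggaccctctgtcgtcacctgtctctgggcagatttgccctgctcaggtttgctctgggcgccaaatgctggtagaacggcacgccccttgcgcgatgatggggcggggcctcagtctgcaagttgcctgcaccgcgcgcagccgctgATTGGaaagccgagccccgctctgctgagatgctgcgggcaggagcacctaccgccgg
Psmb10, chr8:105938343-105938642, minus strand: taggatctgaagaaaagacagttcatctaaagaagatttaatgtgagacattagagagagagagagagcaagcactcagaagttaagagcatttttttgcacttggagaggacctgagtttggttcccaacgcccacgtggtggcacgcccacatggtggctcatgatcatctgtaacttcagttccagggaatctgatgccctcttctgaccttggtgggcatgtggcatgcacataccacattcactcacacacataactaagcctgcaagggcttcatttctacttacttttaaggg
The Psmb9 window holds 1 marked match, a CCAAT box on the opposite strand, and the other 2 windows hold none. The absence of a match says only that these letters are not in the window.

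Because each inducible subunit takes the place of a constitutive one, the pairs were set against each other within a library, which needs no scaling between libraries. The ratio of Psmb8 to Psmb5 per kilobase was 0.107 in the control (95% interval 0.0875 to 0.129), 0.369 after 8 weeks (0.319 to 0.427) and 0.291 after 12 weeks (0.248 to 0.342). For Psmb9 over Psmb6 it was 0.0239 (0.0152 to 0.0360), 0.0824 (0.0628 to 0.107) and 0.0804 (0.0594 to 0.107). For Psmb10 over Psmb7 it was 0.0890 (0.0676 to 0.115), 0.278 (0.236 to 0.326) and 0.352 (0.294 to 0.418). No control interval met the interval of a ZnO library, with counting error alone in the intervals. Each ratio sets a gene given above as higher over a gene given as lower, so it restates those shifts. How often other gene pairs differ in this way was not computed. Relative to the control, the ratios were 3.46, 3.44 and 3.12 times as large at 8 weeks and 2.73, 3.36 and 3.95 times as large at 12 weeks. The constitutive subunit still had the more abundant message per length in each pair and library. As a share of all counts, the 3 immunoproteasome genes made up 0.00166% in the control, 0.00452% after 8 weeks and 0.00382% after 12 weeks.

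**Figure D3:**
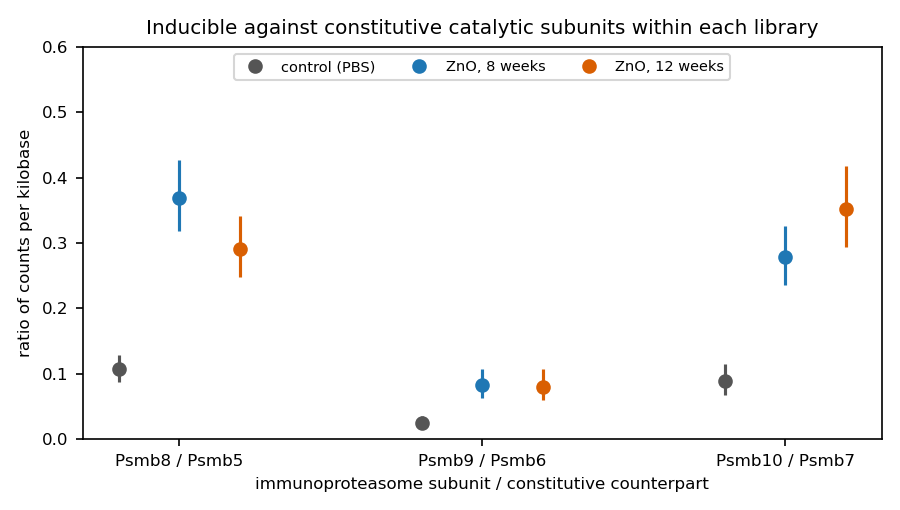
Ratio of counts per kilobase (vertical axis) of each inducible cutting subunit to its constitutive counterpart within the control (grey), 8-week (blue) and 12-week (orange) libraries, with 95% counting intervals. The control ratios are 0.107, 0.0239 and 0.0890, below both ZnO libraries in each pair.

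Marker lists of several liver cell types were also above the control. The 14 Kupffer cell markers, genes of the liver's resident macrophages, summed to 100.3 CPM in the control, 417 after 8 weeks and 316 after 12 weeks, none at 0 counts. Of these, 14 and 13 of 14 were at least 2-fold higher, against 4.15% and 3.11% of all genes tested. The 12 lymphocyte markers summed to 22.4, 37.2 and 38.8 CPM, with 1 of them at 0 counts in each library. Of the 6 that entered the comparisons, only Ptprc, the pan-leukocyte marker CD45, and Cd74, the MHC class II invariant chain, had intervals above 0 against the control, while the T cell gene Cd3e had 15, 14 and 16 counts. The 8 endothelial markers summed to 186, 241 and 221 CPM and the 8 stellate cell markers to 235, 297 and 291 CPM, none at 0 counts. Above the control at 8 and 12 weeks were 8 and 7 endothelial and 7 and 8 stellate markers. Of all 14585 genes tested, 7054 and 7127 were above it. The part of any of these cells in the immunoproteasome values was not tested. Among 10 genes of peptide loading and its regulators, none was 2-fold higher, and 5 at 8 weeks and 7 at 12 weeks were above the control by 1.2-fold or more, as were 24.5% and 23.4% of all genes tested. Nlrc5, the transactivator of MHC class I genes, had 155, 286 and 248 counts (0.75 and 0.67), and the peptide transporters Tap1 (7.08, 8.38 and 11.3 CPM) and Tap2 (24.7, 29.2 and 36.5 CPM) had 12-week ratios of 0.61 and 0.55. The loading chaperone Tapbp (78.6, 122 and 112 CPM) and the peptide-trimming enzyme Erap1 (60.7, 96.5 and 77.2 CPM) were above the control as well. Calr and Pdia3, general chaperones of the endoplasmic reticulum that also serve peptide loading, were below it, with ratios of -0.97 and -0.81 at 8 weeks.

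The 12-week library was then compared with the 8-week library, which does not use the control. Length of exposure cannot be told apart here from any other difference between these 2 libraries. Core genes were lower at 12 weeks and regulatory genes were level. Of 15 core genes 13 were below 0 (median -0.20), of 20 regulatory genes 8 (median 0.01), and of all genes 50.1% (median 0.00). The lowest were Psmb4 (-0.42, interval -0.54 to -0.30), Psmb7 (-0.41, -0.54 to -0.29) and Psma5 (-0.33, -0.55 to -0.12), which were the 3 core genes lower by at least 1.2-fold, as were 19.1% of all genes. No regulatory gene reached 1.2-fold in either direction, and the extremes there were Psmd5 (-0.15) and Psmc2 (0.15). The 3 immunoproteasome genes were all slightly lower, with 1.2-fold reached by Psmb8 (-0.31, interval -0.54 to -0.10) alone. No member differed by 2-fold, against 2.51% of all genes.

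The same difference shows in summed counts within a library. Core genes made up 33.8% of core and regulatory counts in the control (95% interval 33.4 to 34.2), 37.8% after 8 weeks (37.4 to 38.3) and 34.8% after 12 weeks (34.3 to 35.3). At 8 weeks the regulatory genes were thus further below the control than the core genes, with class medians of -0.58 and -0.30, and at 12 weeks the medians were -0.59 and -0.50. As a share of all counts, the core genes went from 0.119% in the control to 0.0989% and 0.0877%, and the regulatory genes from 0.233% to 0.162% and 0.164%.

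**Figure D4:**
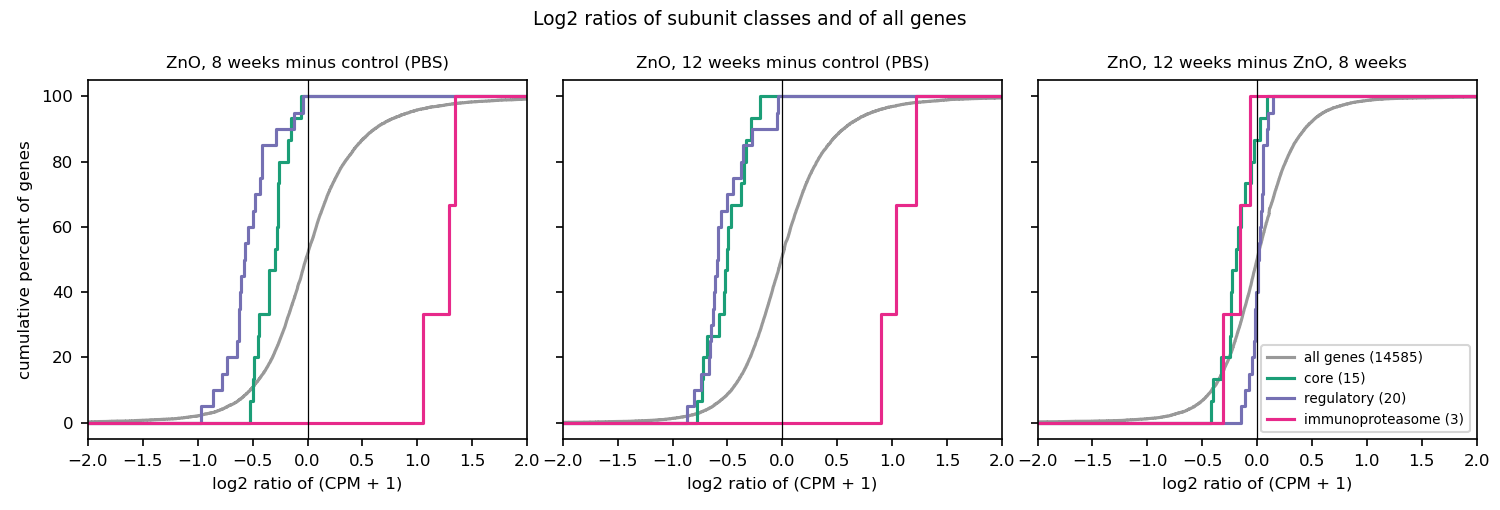
Cumulative percent of genes (vertical axis) against the log2 ratio of CPM + 1 for all 14585 genes tested (grey), 15 core (green), 20 regulatory (violet) and 3 immunoproteasome genes (pink) in the 3 comparisons. Core and regulatory curves reach 100% before 0 in both comparisons with the control, and between 12 and 8 weeks the regulatory median (0.01) lies at the median of all genes (0.00) while the core median (-0.20) lies left of it.

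Promoter sequence was examined because the core and regulatory genes moved together. Of the 39 members 32 had a RefSeq promoter, and the letters of 8 motifs were searched on both strands, among 32851 promoters of 300 bases in all. The 32 members have 34 promoters, and a member counted when any of its promoters matched. The shares of all promoters count single promoters, whether or not the gene was detected in liver, so the units differ. The ETS motif CCGGAAG was found for 10 of 32 members (31.2%) and in 8.86% of all promoters, and 9 of the 10 were regulatory genes. The GC box GGGCGG was found for 19 members (59.4%) and in 35.7% of all promoters. The antioxidant response element core TGACNNNGC was found for Psmb5, Psmb6, Psmc6, Psmd9 and Psmd12 (15.6%), against 12.4% of all promoters. The core and regulatory genes with that motif had median log2 ratios of -0.48 and -0.59 at 8 and 12 weeks, and those without it -0.49 and -0.56. For the ETS motif these medians were -0.54 and -0.58 over the 10 genes with it and -0.38 and -0.54 over the 18 without it, and 9 of the 10 belong to the regulatory class, whose median at 8 weeks was below that of the core class. The CCAAT box was found for 40.6% of members and in 37.4% of all promoters, a loose NF-kappaB pattern (GGG, 5 bases of any kind, CC) for 53.1% and in 50.8%, and TATAAA, the TATA box, for 12.5% and in 13.6%. The interferon-stimulated response element core was found for Psmb3, Psmd4 and Psmd9 and in 3.44% of all promoters, and the cyclic AMP response element TGACGTCA for 0 members and in 1.79%. Some of these motifs can overlap, and a match is no evidence of binding. The windows shown, with the same 4 motifs in capitals, are those of the cutting subunits Psmb5 and Psmb6, of Psmd4 and Psmd11, the regulatory genes with the lowest ratios, and of Psmd12, which holds both the antioxidant and the ETS motif.
Psmb5, chr14:54617946-54618245, minus strand: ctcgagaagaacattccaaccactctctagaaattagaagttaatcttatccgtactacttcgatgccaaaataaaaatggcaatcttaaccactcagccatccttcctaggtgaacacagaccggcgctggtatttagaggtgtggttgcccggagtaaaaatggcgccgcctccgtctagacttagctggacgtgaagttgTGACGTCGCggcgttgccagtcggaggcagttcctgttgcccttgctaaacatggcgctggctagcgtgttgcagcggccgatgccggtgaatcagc
Psmb6, chr11:70525107-70525406, plus strand: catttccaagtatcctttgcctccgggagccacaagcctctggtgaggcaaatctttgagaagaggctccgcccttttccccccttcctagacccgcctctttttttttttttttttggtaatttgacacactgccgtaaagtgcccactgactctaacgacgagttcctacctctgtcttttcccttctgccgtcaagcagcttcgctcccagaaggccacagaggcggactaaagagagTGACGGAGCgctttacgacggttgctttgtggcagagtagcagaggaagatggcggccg
Psmd12, chr11:107479278-107479577, plus strand: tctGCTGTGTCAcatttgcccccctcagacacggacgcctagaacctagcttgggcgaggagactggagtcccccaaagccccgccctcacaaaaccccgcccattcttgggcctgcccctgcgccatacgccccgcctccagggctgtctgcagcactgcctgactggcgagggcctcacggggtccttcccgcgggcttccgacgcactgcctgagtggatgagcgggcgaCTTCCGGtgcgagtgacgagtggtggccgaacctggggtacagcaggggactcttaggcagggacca
Psmd4, chr3:95042565-95042864, minus strand: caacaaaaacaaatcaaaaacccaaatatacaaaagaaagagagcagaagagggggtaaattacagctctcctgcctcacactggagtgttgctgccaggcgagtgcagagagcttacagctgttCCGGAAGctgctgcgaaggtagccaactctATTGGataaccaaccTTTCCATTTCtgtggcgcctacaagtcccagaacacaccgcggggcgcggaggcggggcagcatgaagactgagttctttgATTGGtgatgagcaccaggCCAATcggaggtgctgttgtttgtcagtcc
Psmd11, chr11:80428365-80428664, plus strand: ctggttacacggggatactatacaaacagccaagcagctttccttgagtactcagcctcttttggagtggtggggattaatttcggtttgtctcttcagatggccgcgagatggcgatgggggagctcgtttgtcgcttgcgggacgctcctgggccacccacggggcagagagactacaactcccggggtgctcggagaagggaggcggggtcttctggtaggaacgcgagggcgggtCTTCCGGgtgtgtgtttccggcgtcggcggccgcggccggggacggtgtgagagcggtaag
In Psmb5 and Psmb6 the capitals mark TGACNNNGC shortly before the start, at 47 to 39 and at 9 to 1 bases upstream. Psmd12 has the same motif on the opposite strand far upstream and an ETS motif 17 to 11 bases before the start, and Psmd11 has an ETS motif 11 to 5 bases before it. The window of Psmd4, the member with the lowest ratios, has 5 marked matches: an ETS motif, 3 CCAAT boxes, 2 of them after the start, and 1 interferon-stimulated response element core.

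Genes that work with the proteasome were divided. Among 8 proteasome-bound proteins, Adrm1, a ubiquitin receptor of the regulatory particle, had 84.8, 50.9 and 52.7 CPM (-0.73 and -0.68), and the deubiquitinating enzyme Usp14 had 48.6, 29.9 and 31.6 CPM (-0.68 and -0.61). Uchl5, the other bound deubiquitinating enzyme, had 30.8, 35.9 and 29.1 CPM, and the small lid subunit Shfm1 had 32.4, 32.8 and 32.5. The bound thioredoxin-like protein Txnl1 had ratios of -0.34 and -0.33. In all, 3 of the 8 at 8 weeks and 4 at 12 weeks were lower by 1.2-fold or more, with list medians of -0.05 and -0.23. Of all genes tested, 24.4% and 22.5% were lower by that size. Of the 5 assembly factors of the core, the maturation factor Pomp had 122, 109 and 105 CPM, and the list medians were -0.12 and -0.22. Of the activators, Psme1 (66.2, 79.7 and 61.8 CPM) and Psme2 (26.8, 35.7 and 30.7 CPM), which form the interferon-inducible cap, were above the control at 8 weeks with ratios of 0.26 and 0.40. At 12 weeks their intervals included 0. The nuclear activator Psme3 had ratios of -0.28 and -0.09, the activator Psme4 0.03 and 0.01, and the inhibitor Psmf1 -0.17 and 0.19.

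Vcp, the ATPase that extracts ubiquitylated proteins and delivers them to the proteasome, had 193, 114 and 120.4 CPM (-0.76 and -0.68). All 9 of its cofactors were below the control at both times, 7 and 3 of them by at least 1.2-fold, with medians of -0.55 and -0.25. Of all genes tested, 51.6% and 51.0% were below the control, and 24.4% and 22.5% by at least 1.2-fold. Ubxn1 had 308, 181 and 197 CPM and Nsfl1c 80.7, 51.4 and 47.3. Nfe2l1, the transcription factor that raises proteasome genes when the proteasome is impaired, was above the control, with 154, 183 and 207 CPM (0.24, interval 0.16 to 0.33, and 0.42, 0.34 to 0.51). Ddi2, the protease that activates it, had 252, 287 and 374 CPM (0.19 and 0.56). The core and regulatory subunits, known targets of this factor, were lower in the same libraries. The activity of the factor was not measured here, and a link between these values was not tested. Ngly1, which removes sugars from the same factor, had 53.2, 43.5 and 38.1 CPM, and the related factor Nfe2l2 had 13, 15 and 16 counts. Syvn1, a ubiquitin ligase of the endoplasmic reticulum, had 143, 63.5 and 127 CPM, and Maff, a small partner of both factors, 11.9, 31.5 and 17.9. Among ubiquitin genes and shuttle factors, 3 of 11 at 8 weeks and 6 of 11 at 12 weeks were lower by 1.2-fold or more, against the same 24.4% and 22.5%.

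**Figure D5:**
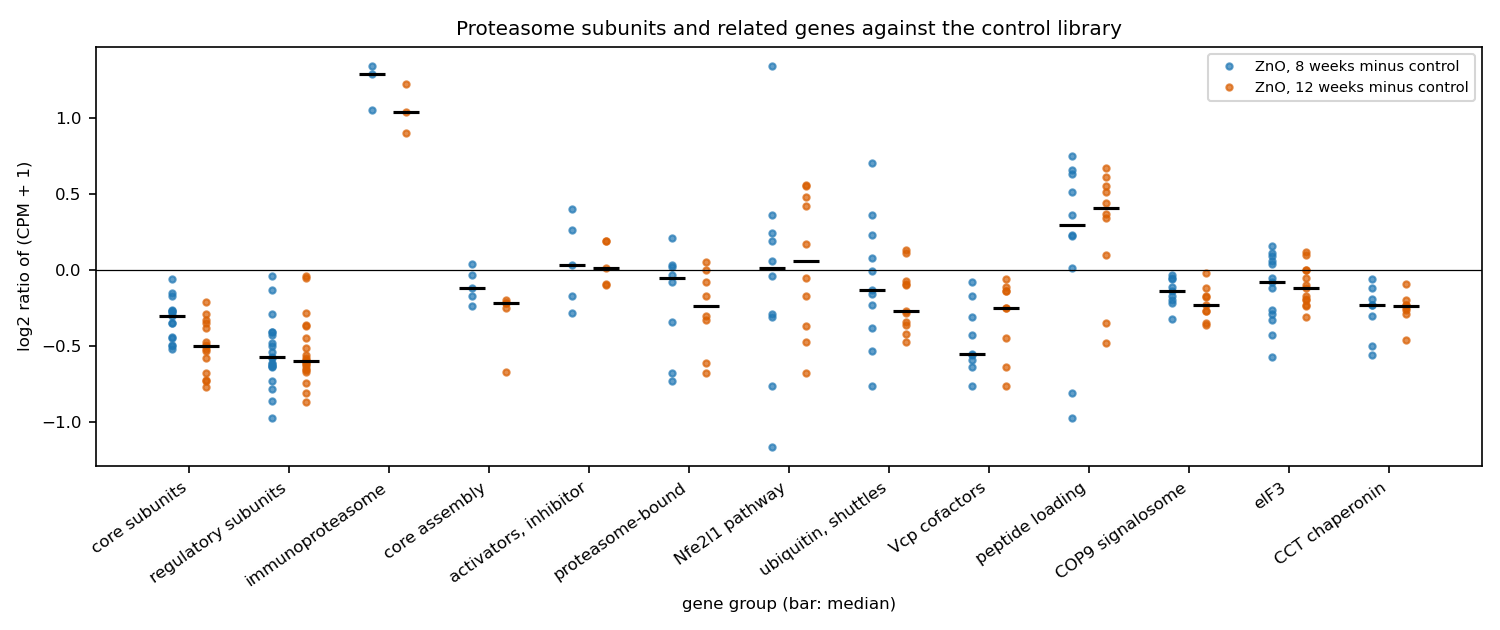
Log2 ratio of CPM + 1 against the control (vertical axis) for each gene group at 8 weeks (blue) and 12 weeks (orange), 1 point per gene, with a bar at the median. Regulatory subunits and, at 8 weeks, Vcp cofactors have the lowest medians (-0.58 and -0.55).

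Other large cytosolic assemblies were set beside the proteasome. The COP9 signalosome, whose architecture resembles that of the proteasome lid, had medians of -0.14 at 8 weeks and -0.23 at 12 weeks over 9 genes. The initiation factor eIF3 had -0.08 and -0.12 over 13 genes, and the chaperonin CCT had -0.23 and -0.24 over 8. All 9 COP9 genes and all 8 CCT genes were below the control at both times, as were all 35 core and regulatory genes. Of the 13 eIF3 genes, 8 and 11 were below it, and of all genes tested 51.6% and 51.0%. Lower by 1.2-fold or more at 8 weeks were 1 of 9, 4 of 13 and 3 of 8 genes, compared with 11 of 15 core and 18 of 20 regulatory genes. At 12 weeks these counts were 4 of 9, 1 of 13 and 2 of 8, compared with 14 of 15 core and 18 of 20 regulatory genes. Of all genes tested, 24.4% at 8 weeks and 22.5% at 12 weeks were lower by that size. With 1 library per group the difference between these assemblies was not tested. Over all genes, the medians of 4 bins of exon length lay between -0.03 and 0.01 at 8 weeks and between -0.05 and 0.05 at 12 weeks, and genes at 10 CPM or more on average, a limit set after seeing the data, had medians of -0.03 at both times.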

How the data were processed

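The authors deposited 1 table of estimated counts by gene for each library, without scaling, as the values show: in each library 70.2% to 71.5% of the values above 0 lay within 0.005 of a whole number. Fractions occurred in 25 of the 39 members. Cufflinks 2.2.1.0, TopHat2 2.1.0, mm10 and mm9 appear in the submitters' processing notes, with no role given. How reads were counted (program, strand, reads with several matches) is not given in the sources used here. All 39 members were found in GENCODE M21 (GRCm38), 29 of them with the same start and end, so coordinates are those of mm10. Exons of 11 members overlap another entry.

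Counts were rounded and scaled by TMM (edgeR 4.0.16, run in R 4.3.3); the control factor was 0.997, that of 8 weeks 1.005 and that of 12 weeks 0.999. With 1 library per group no test was made. Genes are called at 2-fold, or at 1.2-fold, as rules of size over all 14585 genes tested. Intervals are exact (Clopper-Pearson); amplified reads are not independent molecules, so they cover counting error only. The calculation was tested on simulated counts. DESeq2 1.42.0 gave alternative size factors, and Python 3.11.15, scipy 1.17.1 and pandas 2.3.3 did the rest. Members, classes and lists were chosen with earlier results of these data known. By the rule for named genes, values in every library are given for the immunoproteasome genes, their counterparts, and the extreme and the most and least abundant members of each class, and from other lists for up to 4 genes at 2-fold or else the 2 most abundant. Members and other genes named beyond that rule were chosen after their values were seen.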

Additional observations from a re-analysis of the deposited data

How the results depend on the processing

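Of 780 recomputed values, 762 stayed within a set tolerance, 18 moved beyond it, and no called value changed sign. The tolerance was 1.5 times for a count, the counting interval (for a class, the median of its genes' interval bounds) or 0.05 for a log2 ratio without loss of a 2-fold call, 0.1 on the log2 scale for a summed share, and the interval for a pair ratio. Within it, core genes lower by 1.2-fold at 8 weeks numbered 9 in place of 11 under scaling by total counts, DESeq2 size factors or the upper quartile, and 12 with 0.1 CPM added. Immunoproteasome genes at 2-fold higher numbered 2 in place of 3 at 8 weeks under a filter at 5 CPM, which removed Psmb9, and 3 in place of 2 at 12 weeks with 0.1 CPM added. With 5 CPM added, the immunoproteasome medians were 0.87 at 8 weeks and 0.82 at 12 weeks, and 1 and 0 of the 3 genes passed 2-fold. A larger added value shrinks the ratios of low genes by construction. At a threshold of 1.5-fold, 9 regulatory genes were lower at 8 weeks, and 4 core and 11 regulatory genes at 12 weeks. The share of all genes at 1.5-fold was not computed, so these counts have no background to be read against. Leaving out the 11 members whose exons overlap another entry (chosen after the values were seen) kept Psmb10 alone of the immunoproteasome genes, so that 1 gene passed 2-fold at each time; between 12 and 8 weeks, 1 core gene and 0 immunoproteasome genes were then lower by 1.2-fold, and 1 immunoproteasome gene was below 0. Depth limits Psmb9, Psma8 and Psmd10, whose counts are low. No library could be left out, since each group has 1. No paired analysis was possible because each group has 1 library.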
